A study of Homo sapiens with 2 samples.

Results

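MYC binding was examined at the start sites of 8 genes of the microRNA system: the microRNA host genes MIR17HG, MIR22HG, DLEU2, MIRLET7BHG and PVT1, the let-7 inhibitor LIN28B, and the processing enzymes DROSHA and DICER1. A member is one of these genes whether or not a peak lay near it, and its peaks are those with a summit within 5 kb of a stated GRCh37 start site. All 8 genes had such a peak, and they held 21 of the 17659 MYC peaks of the list. The data come from 1 ChIP-seq library against MYC, with 1 input library as its background. Both were made from SH-EP/TET21/N (TET21) cells that express WT-MYC, the full-length protein. TET21 is a human neuroblastoma line derived from SH-EP cells with a MYCN transgene that doxycycline represses. For both libraries the cells had grown for 7 days in 1 µg/mL doxycycline, and fixation took 10 min in 1% formaldehyde. The antibody was a rabbit polyclonal made by the submitters, and the labels do not say whether it separates ectopic from endogenous MYC. The stated purpose was to find where MYC binds. There is 1 library of each kind, so no value has a replicate error and no difference was tested. A list of peaks holds no RNA, so neither the cell identity nor the expression of these genes was measured.

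Primary microRNA transcripts are cut in the nucleus by the RNase DROSHA, and the resulting hairpins are cut in the cytoplasm by the RNase DICER1. The mature strand guides Argonaute proteins to messenger RNAs, mainly through its seed near the 5′ end. MYC is known to activate the miR-17-92 cluster and to lower let-7, miR-15a/16-1 and other microRNAs in several tumour types. LIN28B blocks the maturation of let-7 and is highly expressed in many neuroblastomas.

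The mature sequences below are shown because they are the products of the bound host genes. They are from RefSeq (GRCh38.p14), and the capitals mark the seed, bases 2 to 8. The 6 hairpins inside MIR17HG gave these principal strands, with 1 seed shared by miR-17 and miR-20a and another shared by miR-19a and miR-19b.
miR-17-5p: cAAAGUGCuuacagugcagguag
miR-20a-5p: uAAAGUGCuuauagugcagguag
miR-18a-5p: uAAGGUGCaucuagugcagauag
miR-19a-3p: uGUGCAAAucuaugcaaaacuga
miR-19b-3p: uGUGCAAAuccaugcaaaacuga
miR-92a-3p: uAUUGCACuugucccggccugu
MIR22HG carries miR-22. DLEU2 carries miR-15a and miR-16-1, which share a seed, and MIRLET7BHG carries let-7a-3 and let-7b, which share another.
miR-22-3p: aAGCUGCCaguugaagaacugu
miR-15a-5p: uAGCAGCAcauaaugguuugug
miR-16-5p: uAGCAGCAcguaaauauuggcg
let-7a-5p: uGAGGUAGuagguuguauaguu
let-7b-5p: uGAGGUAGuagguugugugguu
RefSeq also places MIR3613 in DLEU2, MIR3619 and MIR4763 in MIRLET7BHG, and MIR3173 in DICER1. PVT1 is known to carry MIR1204, MIR1205, MIR1206 and MIR1207, but it was left out when microRNAs were assigned to hosts here.

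A MYC peak lay close to every start site. Of the 21 peaks, 15 had a summit within 1 kb of a start and each of the 8 genes had at least 1 of them. A summit within 500 bp was found at 7 of 8, the exception being LIN28B at 579 bp. The farthest summit inside the window was 2552 bp from its start (MIRLET7BHG), and the nearest outside was 8456 bp away (MIR22HG). Summits lay downstream of the stated start in 13 peaks and upstream in 7, and the PVT1 summit fell on the start itself. Further RefSeq starts of DLEU2, LIN28B and DICER1 were not used for these counts. As a background, 4.63% of the positions of a 1-kb grid along chromosomes 1 to 22 and X had a summit within 5 kb. The share among all start sites was not computed, because no GRCh37 annotation was used here. MYC is known to favour start sites, which the grid does not allow for. More than 1 summit was common: 7 of 8 genes had 2 or more within 5 kb, 3 had 3 or more, 2 had 4 or more and 1 had 5. Among grid positions with a summit within 5 kb these shares were 23%, 4.99%, 1.18% and 0.316%.

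**Figure D1:**
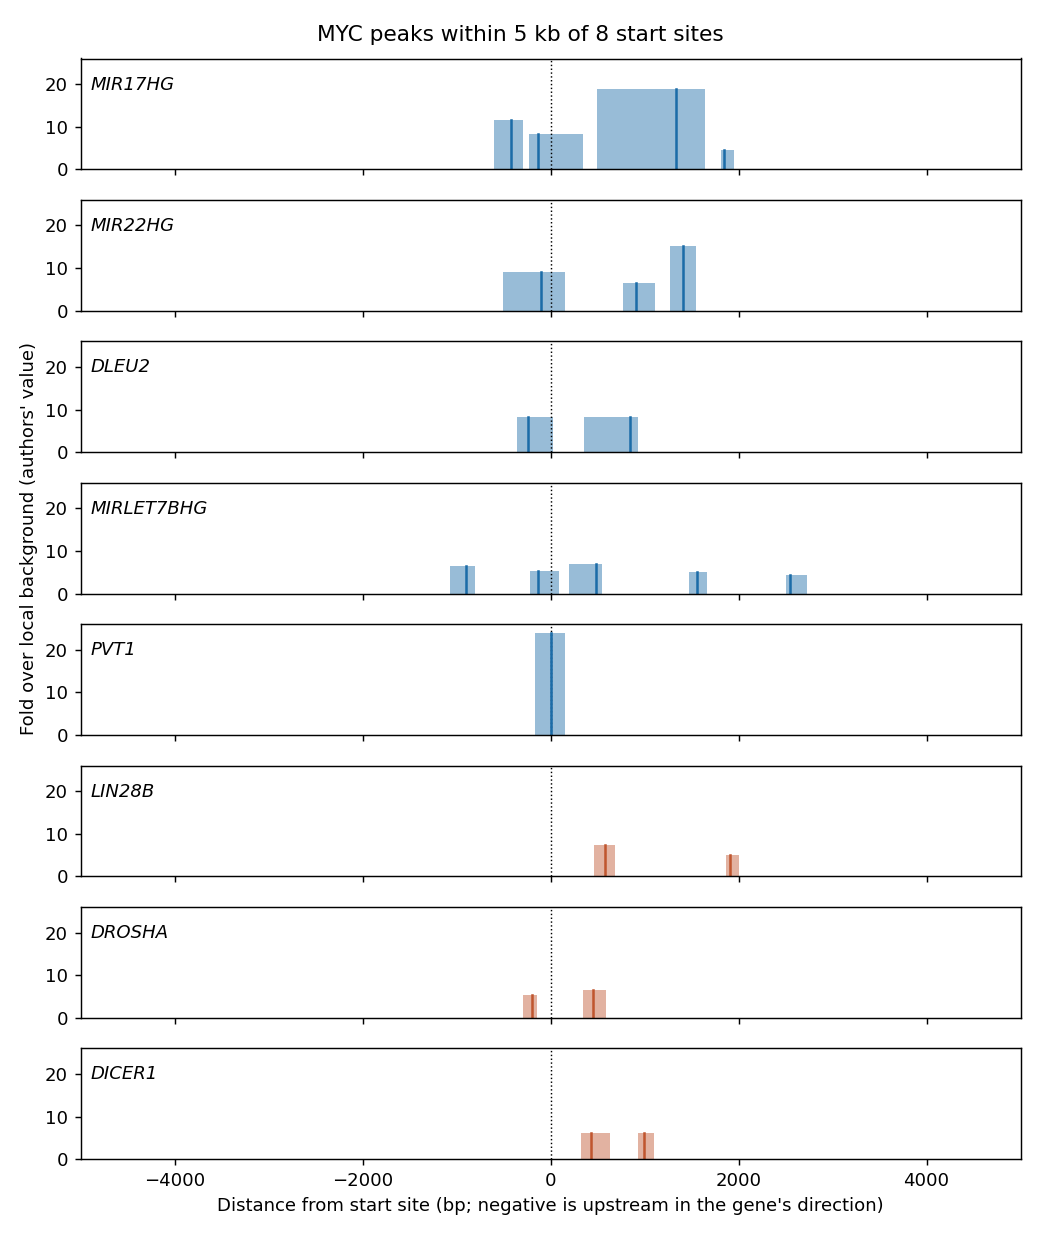
MYC peaks around the 8 start sites. The x axis is the distance from the start site in bp, negative upstream in the direction of the gene (for PVT1 in the direction of the chromosome), and the y axis is the authors' fold over the local background. Bars span the peaks, dark lines mark the summits, blue marks microRNA hosts and orange the other 3 genes. The tallest bars are at the start of PVT1 (23.87) and 1335 bp into MIR17HG (18.79).

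Peaks at these genes were near the middle of the list in strength, apart from 3 hosts. The authors' deposited fold compares the ChIP signal at the summit with the caller's local background. The ChIP fragments over each summit (the pileup) and the background, in expected fragments, were recovered from the authors' fold and −log10 p. The median fold over the 21 peaks was 6.54, against 6.40 over the whole list. Folds of at least 10 were seen in 4 of 21 peaks (19%), against 15.4% of all peaks, and these 4 were in MIR17HG, MIR22HG and PVT1. Among the 6 peaks of LIN28B, DROSHA and DICER1 the fold ranged from 5.14 to 7.39, and among the 15 host peaks from 4.31 to 23.87. By the −log10 p of the authors' deposited table, 11 of the 21 were in the upper part of the list above its median (50.3% of all peaks) and 5 above its upper quartile (25.1% of all peaks). These shares are near the background.

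**Figure D2:**
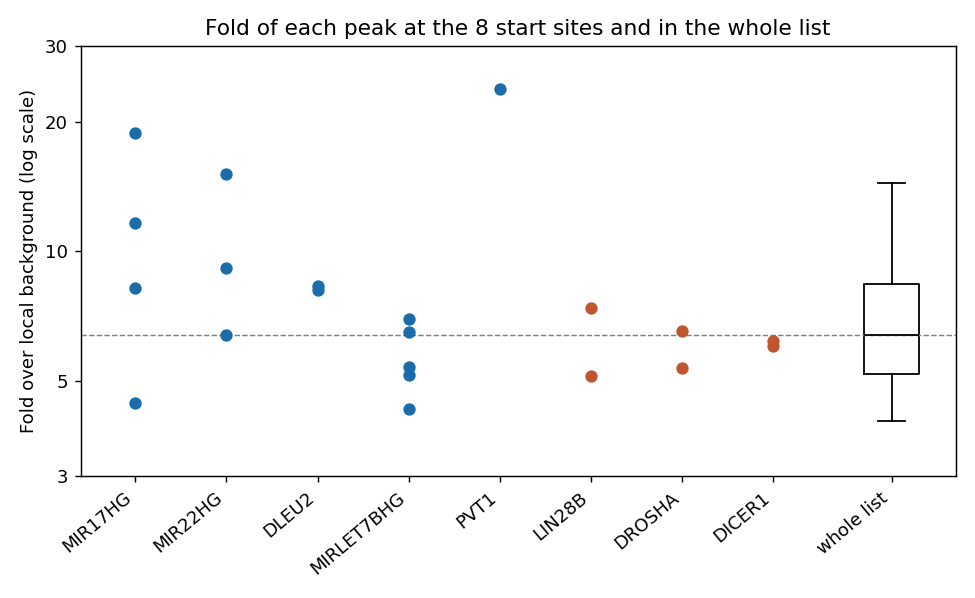
Fold over local background of each peak at the 8 start sites and in the whole list. Each point is 1 peak (blue, hosts; orange, LIN28B, DROSHA and DICER1), the y axis is a log scale without unit, the box spans the quartiles of all 17659 peaks (5.17 to 8.38) with whiskers at the 5th and 95th percentiles, and the dashed line is the list median of 6.40. Only PVT1, MIR17HG and MIR22HG have points above 10.

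MIR17HG, the host of the miR-17-92 cluster, had the most significant peak of the 8 genes and 4 peaks in all. Its start is on the plus strand of chromosome 13 at 92000074. The leading peak, at chr13:92000573-92001712, had its summit 1335 bp downstream. It held 55 ChIP fragments (95% Poisson interval 41.4 to 71.6) over a background of 1.98, and its fold was 18.79 (−log10 p 59.09). It ranked 153 of 17659 by −log10 p and 22 by width, at 1140 bp. Peaks wider than 1000 bp were 48 in the whole list (0.272%). The other 3 peaks were weaker. The peak 419 bp upstream held 19 fragments (11.4 to 29.7) with a fold of 11.62, and the peak 136 bp upstream, which spans the start, held 13 (6.92 to 22.2) with a fold of 8.22. The peak 1843 bp downstream held 8 fragments (3.45 to 15.8) with a fold of 4.43, and 5.5% of all peaks had a lower −log10 p. The interval of the leading pileup lay above those of the other 3, but by fold, which allows for its higher background, its interval (14.2 to 24.4) overlapped that of the peak 419 bp upstream (7.23 to 17.8). On GRCh38 the mature strands of the cluster begin 2.93 to 3.67 kb after the RefSeq start. If that start and the GRCh37 start used here are close to each other, the leading peak lies between the start and the hairpins, but positions were not converted between builds. No other peak was called for 1163 kb downstream or 3674 kb upstream.

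PVT1, a long noncoding RNA gene next to MYC on chromosome 8 that is often amplified with it, had 1 peak, the one of highest fold. At chr8:128806612-128806935 the peak held 43 fragments (31.1 to 57.9) over a background of 0.843, and its fold was 23.87 (−log10 p 58.04). Its summit fell on the start site, 128806779, and it ranked 114 by fold and 162 by −log10 p. The peak was 324 bp wide, against 1140 bp for the leading peak of MIR17HG and a median of 226 bp over the whole list. The pileup intervals of these leading peaks overlap. No other summit lay within 50 kb. Beyond it, in the direction of MYC, peaks lay 54.0 and 56.2 kb away (chr8:128752695-128752851 and chr8:128750502-128750645) with folds of 6.00 and 5.16. Whether they lie inside MYC itself was not checked, because no GRCh37 annotation was used. Signal from ectopic MYC sequence, if any, was not told apart there. On the far side, peaks lay 57.0, 57.7 and 59.8 kb away with folds of 5.17, 9.22 and 6.19.

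MIR22HG, the host of miR-22, had 3 peaks around its start at 1619504 on the minus strand of chromosome 17. The leading one lay inside the gene, 1404 bp downstream (chr17:1617960-1618237), with 34 fragments (23.5 to 47.5) over 1.32 and a fold of 15.09. The peak over the start, 103 bp upstream and 660 bp wide, held 17 fragments (9.9 to 27.2) with a fold of 9.12. The weakest, 905 bp downstream, held 12 (6.2 to 21) with a fold of 6.40. As in MIR17HG, the peak inside the transcribed unit was stronger than the one over the start, although here the intervals of these pileups overlap. WDR81 starts on the opposite strand next to MIR22HG in RefSeq, so the upstream peak cannot be given to 1 of them. Further upstream, at 8.46 kb, a peak of 32 fragments had a fold of 18.86. By value this was higher than those of the 3 peaks within 5 kb, although the leading one held 34 fragments. No interval was computed for this peak.

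DLEU2, which encodes miR-15a and miR-16-1 and lies in the region of chromosome 13 that is often deleted in chronic lymphocytic leukaemia, had a pair of peaks of like strength on either side of its start. The start is at 50699677 on the minus strand. The upstream summit, at 236 bp (chr13:50699652-50700034), held 14 fragments (7.65 to 23.5) over 0.843 with a fold of 8.14. The downstream summit, at 841 bp (chr13:50698752-50699317), held 13 (6.92 to 22.2) over 0.683 with a fold of 8.32. Another pair lay 42.8 and 43.3 kb downstream, with folds of 7.05 and 4.96. RefSeq lists 2 starts for DLEU2, and on GRCh38 the inner one is 43500 bp downstream of the outer one. Genes on the opposite strand were not looked for near the inner start, so the farther pair was not assigned to a gene.

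MIRLET7BHG, the host of let-7a-3 and let-7b, had the most peaks, 5, with folds between 4.31 and 6.96. Its start is at 46449749 on chromosome 22. Going along the gene, the summits lay 904 and 129 bp upstream and 487, 1561 and 2552 bp downstream. Their pileups were 12, 15, 13, 11 and 9 fragments and their folds 6.49, 5.37, 6.96, 5.17 and 4.31. The Poisson intervals of all 5 overlap (4.12 to 24.7 from the lowest to the highest bound), so no order among them was detectable at this depth. The densest surroundings were also here: 18 summits lay within 50 kb, against 7 or fewer at each of the other 7 genes. The median was 2 over grid positions with a summit within 5 kb, and 0.0361% of those positions had 18 or more. That threshold is this gene's own count, and the grid positions are neither start sites nor matched for gene density. Of the 13 peaks between 5 and 50 kb, 10 lay downstream and 3 upstream. The strongest of them, 26.6 kb downstream, held 28 fragments with a fold of 14.02, by value above each of the 5 near the start. No interval was computed for it. RefSeq gives this gene the further name PRR34-AS1 and a start on GRCh38 whose match to the start used here was not checked.

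**Figure D3:**
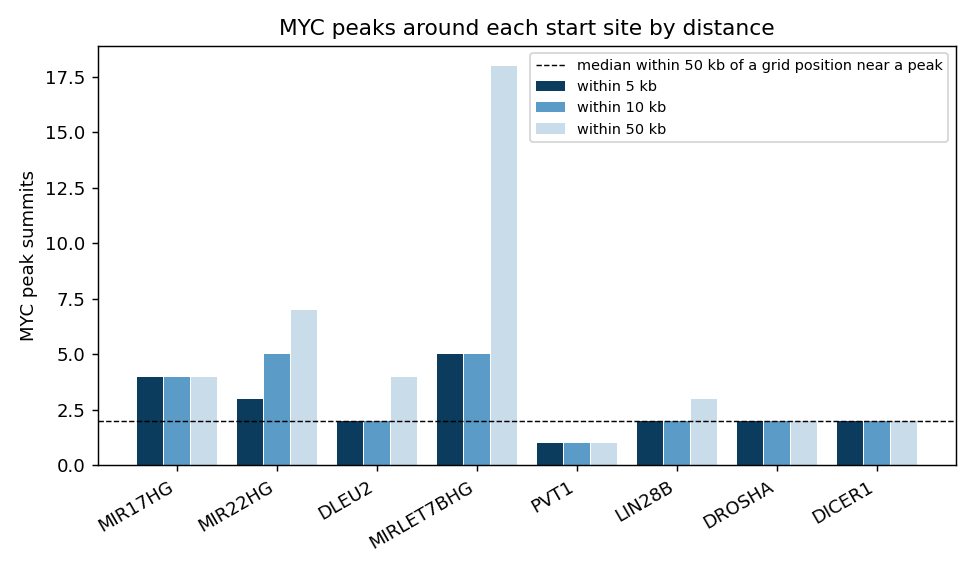
Number of MYC peak summits within 5, 10 and 50 kb of each start site. Bars are counts, and the dashed line is the median of 2 summits within 50 kb of grid positions that have a summit within 5 kb. MIRLET7BHG reaches 18 within 50 kb, while DROSHA and DICER1 have the same 2 at every distance and PVT1 has 1.

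LIN28B, the RNA-binding protein that blocks let-7 maturation, had 2 modest peaks, both inside the gene. The start is at 105404923 on the plus strand of chromosome 6. The nearer summit, 579 bp downstream (chr6:105405380-105405612), held 12 fragments (6.2 to 21) over 0.759 with a fold of 7.39. The farther, 1908 bp downstream, held 8 (3.45 to 15.8) with a fold of 5.14 and had the smallest width in the list, 142 bp, which 9.21% of peaks share. A further site 15.6 kb upstream held 9 fragments with a fold of 5.94. RefSeq lists 2 starts for LIN28B, 16142 bp apart on GRCh38. If the start used here is the inner one, the site 15.6 kb upstream lies inside the gene too, but positions were not converted between builds. None of these sites was above the upper quartile of the list by −log10 p.

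DROSHA and DICER1, the nuclear and cytoplasmic RNases of the pathway, each had 2 peaks, with folds of 5.35 to 6.54. The leading DICER1 peak was above the list's median −log10 p of 10.32, at 12.87, and the other 3 peaks were below it. The DROSHA start is at 31532282 on the minus strand of chromosome 5. Its summits lay 193 bp upstream with 8 fragments (3.45 to 15.8) and a fold of 5.35, and 447 bp downstream (chr5:31531691-31531941) with 10 fragments (4.8 to 18.4) and a fold of 6.54. Both DROSHA peaks sat at the lowest background of the list, 0.683 fragments, which 9.97% of all peaks share within 0.0003 fragments. The DICER1 start is at 95624347 on the minus strand of chromosome 14, with summits 428 and 997 bp downstream. RefSeq lists 5 starts for DICER1, the outermost and innermost 24507 bp apart on GRCh38. Which of them is closest to these summits was not checked across builds. The nearer site (chr14:95623714-95624027) held 21 fragments (13 to 32.1) over a background of 2.64, higher than that of 95.6% of peaks, so its fold was 6.04. The other held 11 (5.49 to 19.7) over 0.937, and its fold was 6.19. The DICER1 peaks thus had like folds over unlike backgrounds, and the intervals of their pileups overlap. No further peak lay within 100 kb of either start. In RefSeq, C5orf22 starts next to DROSHA and DICER1-AS1 next to DICER1 on the opposite strand, so these peaks can belong to either gene of each pair.

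**Figure D4:**
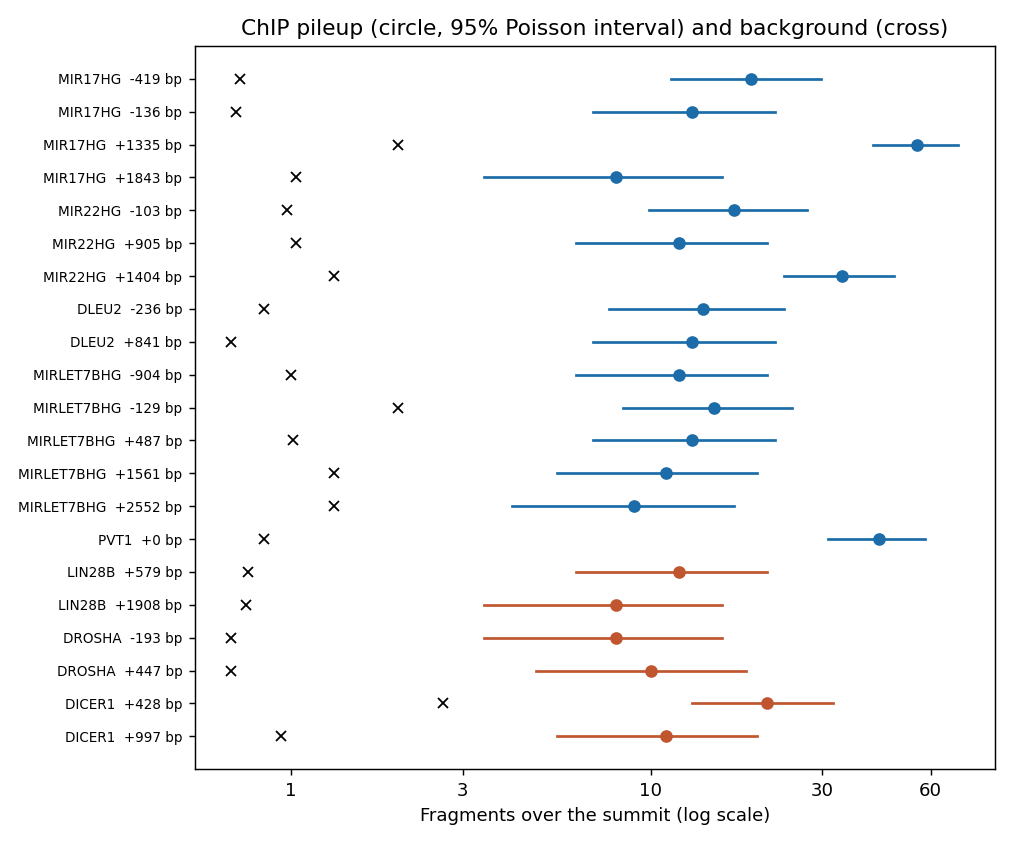
ChIP pileup and local background at each of the 21 peaks. The x axis is fragments over the summit on a log scale, rows are peaks named by gene and distance from the start in bp, circles with lines are the ChIP pileup with its 95% Poisson interval (blue, hosts; orange, the other 3 genes), and crosses are the background. The pileups of MIR17HG at 1335 bp (55), PVT1 (43) and MIR22HG at 1404 bp (34) are the 3 highest, and backgrounds run from 0.683 to 2.64.

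Set side by side by leading peak, the folds with counting intervals were 23.87 (17.4 to 32) at PVT1, 18.79 (14.2 to 24.4) at MIR17HG and 15.09 (10.6 to 20.9) at MIR22HG. They were 8.14 (4.69 to 13.3) at DLEU2, 7.39 (4.09 to 12.5) at LIN28B, 6.96 (3.94 to 11.5) at MIRLET7BHG, 6.54 (3.44 to 11.5) at DROSHA and 6.04 (3.85 to 9.09) at DICER1. Neighbours in this order overlap throughout. The intervals of PVT1 and MIR17HG lay above those of the lower 5 genes, and that of MIR22HG lay above only that of DICER1. The peak shown for a gene is its most significant, which raises genes with several peaks, and the intervals cover counting error alone. The median leading fold over the 8 genes was 7.76.

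The E-box CACGTG, the sequence best bound by MYC with MAX, was searched in RefSeq's promoter windows, from 250 bp before to 50 bp after each start on GRCh38.p14. It is its own reverse complement, so a search of either strand is the same. Windows were matched for 7 of the 8 genes, without PVT1, and 2 of these 7, DLEU2 and LIN28B, held a CACGTG in any window, against 8.77% of 27305 genes. In the window farthest upstream alone, 1 of 7 held it (DLEU2), against 7.41% of genes. The looser CANNTG was in 5 of 7, against 73.1% of genes. Related, weaker sequences were CACGCG, then also CATGCG, then also CACGAG and lastly CATGTG. Read on both strands, at least 1 of these was in 4 of the 7 genes (DLEU2, LIN28B, MIR17HG and MIR22HG), against 35.7% of genes. In DLEU2 all 5 such matches lay in the window of the inner start (chr13:50081992-50082291), 43500 bp downstream of the outer one. The outer DLEU2 window held CACGTG but no related sequence. Some of these matches overlap. Genes with several starts have more sequence searched, 5 windows for DICER1 and 2 each for DLEU2 and LIN28B. The sequences of 4 windows are shown because they belong to genes with a match, and for DLEU2 only the outer window is given. Each runs 5′ to 3′ along the gene, with CACGTG and its related sequences in capitals.
DLEU2, outer start, chr13:50125492-50125791, minus strand: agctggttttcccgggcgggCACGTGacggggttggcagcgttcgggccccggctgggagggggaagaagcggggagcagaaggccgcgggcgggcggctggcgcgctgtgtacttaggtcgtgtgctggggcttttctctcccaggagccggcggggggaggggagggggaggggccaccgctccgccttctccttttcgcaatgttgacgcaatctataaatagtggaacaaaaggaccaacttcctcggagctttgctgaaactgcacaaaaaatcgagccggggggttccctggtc
LIN28B, inner start, chr6:104956857-104957156, plus strand: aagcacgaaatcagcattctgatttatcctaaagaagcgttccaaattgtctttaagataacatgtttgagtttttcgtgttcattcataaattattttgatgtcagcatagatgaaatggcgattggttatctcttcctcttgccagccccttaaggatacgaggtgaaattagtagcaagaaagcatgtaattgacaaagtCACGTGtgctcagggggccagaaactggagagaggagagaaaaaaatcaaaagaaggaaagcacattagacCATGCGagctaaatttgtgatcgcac
MIR17HG, chr13:91347437-91347736, plus strand: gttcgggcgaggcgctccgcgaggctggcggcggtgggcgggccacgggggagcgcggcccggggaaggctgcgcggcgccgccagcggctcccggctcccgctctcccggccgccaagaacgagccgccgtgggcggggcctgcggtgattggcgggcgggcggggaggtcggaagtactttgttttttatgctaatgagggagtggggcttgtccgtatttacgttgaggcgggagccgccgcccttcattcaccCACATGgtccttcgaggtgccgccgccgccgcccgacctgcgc
MIR22HG, chr17:1716161-1716460, minus strand: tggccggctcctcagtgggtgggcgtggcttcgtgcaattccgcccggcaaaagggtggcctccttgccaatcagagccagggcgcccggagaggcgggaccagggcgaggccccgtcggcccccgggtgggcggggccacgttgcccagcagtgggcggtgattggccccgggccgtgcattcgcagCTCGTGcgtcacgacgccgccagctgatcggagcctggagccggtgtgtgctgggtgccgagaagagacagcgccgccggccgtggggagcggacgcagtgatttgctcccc
In DLEU2 the CACGTG begins 230 bp before the RefSeq start, and the upstream MYC summit lay 236 bp before the GRCh37 start. Whether these starts are the same base was not checked across builds. The same holds for the other genes, so a window, such as that of MIRLET7BHG, may lie away from the peaks described. In LIN28B the CACGTG begins 47 bp before the inner start, in a window of 39.0% G and C, while the outer window (73.0%) holds none. The MIR17HG window holds CACATG 7 bp after its start and the MIR22HG window CTCGTG 62 bp before its start. The leading peaks of MIR17HG and MIR22HG lay over 1 kb downstream, outside windows of this length. Neither CACGTG nor a related sequence was in the windows of DROSHA, DICER1 or MIRLET7BHG, which says only that these letters are absent there. The looser CANNTG was in windows of DICER1 but not in those of DROSHA or MIRLET7BHG.

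Among 19 other genes of the microRNA pathway, 16 had a window, and 3 held CACGTG: RAN, which drives nuclear export of hairpins with exportin 5, the RNA helicase gene DDX5, a DROSHA cofactor, and TNRC6C, an Argonaute partner. AGO2, LIN28A and TUT4 had no entry. Among 15 other microRNA host genes, 1 held it, MCM7, a replication helicase subunit whose intron carries miR-106b, miR-93 and miR-25. Over all 27305 genes the share with CACGTG in any window was 8.77%. In the window farthest upstream alone, 2 of the 16 pathway genes and 1 of the 15 hosts held it, against 7.41% of genes. MYC peaks at these other pathway and host genes were not looked up, because their GRCh37 starts were not at hand.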

How the data were processed

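MYC ChIP and input libraries (1 of each) came from the same cells. The build is GRCh37, per the submitters' processing notes. The same notes list MACS2 2.1.0, bedtools, Picard 2.7.1, SAMtools 1.3 and STAR 2.5.2a without their roles. The file is a list of 17659 peaks in narrowPeak layout, whose filtering is not described in these sources. The authors' deposited score was 10 times their −log10 q without its decimals in 100.0% of peaks, and was not used further. The authors' deposited fold is a ratio of the ChIP signal to the caller's local background, and −log10 p and −log10 q were deposited as the caller gave them. The weakest peak has a q-value of 0.0493. Summits are given by the authors as an offset in bp, and coordinates are printed 1-based on GRCh37, except windows and microRNAs from RefSeq (GRCh38.p14). No genome sequence was used and no coordinate was converted.

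The library depth is unknown. Pileup (ChIP fragments over the summit) and background were recovered from each fold and −log10 p by trying whole pileups from 3 to 699 under a Poisson model, and 100.0% of peaks matched within 0.001. This recovery was tested on simulated data. No pileup under 5 is listed. Intervals are exact Poisson, cover counting error only, and treat fragments as independent molecules, which sequencing without molecular identifiers does not ensure. With 1 library of each kind there was no test. Named genes are all 8 members. The members and lists were chosen with earlier results of these data known. Alternatives were other distances, peak thresholds and motifs. Tools were Python 3.11.15, numpy 2.4.6, scipy 1.17.1, pandas 2.3.3 and matplotlib 3.10.9.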

Additional observations from a re-analysis of the deposited data

How the results depend on the processing

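Of 20 alternatives, 14 left a result near its value and 6 moved a count. Near meant a count within 1.5 times its value, or a median leading fold between the genes' median lower and upper bounds (4.39 to 12.88). This median stayed at 7.76 for the peak nearest the start and at 1 and 10 kb. At 1 kb, however, the leading fold of MIR17HG was 11.62 in place of 18.79, and that of MIR22HG 9.12 in place of 15.09. All 8 genes kept a peak at distances of 1, 2 and 10 kb, at a q of at most 0.01 and when any base of the peak was used in place of its summit. Keeping peaks at or above the upper quartile of −log10 p left 3 genes (MIR17HG, MIR22HG and PVT1) and 5 of the 21 peaks, and keeping those at or above the median left 7 genes, without DROSHA, and 11 peaks. Both are fewer by construction. Genes with a match numbered 2 for CACGTG, 4 for the related sequences and 5 for any CANNTG. With only the window farthest upstream of each gene, an alternative chosen after seeing the data, 1 gene held CACGTG (DLEU2), against 7.41% of all genes. No paired analysis was possible because there is 1 library of each kind, and for the same reason no replicate could be left out. A site with fewer than 5 fragments could not enter the list, and the weaker peaks described rest on 8 or 9 fragments.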
